A study of Mus musculus with 12 samples.

Results

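Immunoglobulin heavy chain variable segments, the Ighv genes, were followed in RNA from mouse bone marrow. The members were the genes whose symbol starts with Ighv and whose counts summed to at least 120 over 12 libraries. They were 71 of the 185 Ighv genes in a count table of 53801 genes. They were chosen by their summed counts, so their abundance is a description and was not tested. The libraries formed 4 groups of 3, all from strain C57BL/6N. Sham libraries came from sham mice without EMPA, and Sham-E libraries from sham mice that also had EMPA. MI libraries came from mice with myocardial infarction without EMPA, and MI-E libraries from mice with infarction that also had EMPA. The treatment protocol describes ligation of the LAD, the left anterior descending coronary artery, through an opened chest under isoflurane. The sources used here do not give the dose of EMPA, the time from surgery to sampling or the age of the mice. The labels do not tie libraries to separate mice, so p-values measure the spread between these samples, which may be technical. Libraries are called by group and by the number in their column name.

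An Ighv gene encodes most of the variable domain of an antibody heavy chain. In developing B-lineage cells of the marrow, the Rag1 and Rag2 recombinase joins a D segment to a J segment and then a V segment to both, and the joined exon is transcribed with Ighm and later with other constant genes. A B cell and its progeny share a productive rearrangement, and plasma cells hold far more immunoglobulin RNA than other B-lineage cells. The Ighv RNA of whole marrow therefore adds many clones and several cell stages.

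The Ighv genes lay on chromosome 12, from Ighv5-1 to Ighv1-86, at chr12:113572927-116010093 (mm10, GENCODE M21 annotation), and all 71 members lay on the minus strand. Of the members, 70 were annotated as V genes and 1, Ighv1-41, as a pseudogene. The table held 70 Ighv pseudogenes in all. The V exon, which encodes the variable domain, was 305 bases long at the median (283 to 351). The sequences below are the last 300 bases of the V exons of the members on which the results turn: Ighv1-9, Ighv5-17 and Ighv1-62-2 had the smallest p in MI against Sham, Ighv11-2 and Ighv14-3 were among the smallest in MI-E against MI, and Ighv1-81 led the members per transcript length. They are printed 5′ to 3′ from GENCODE M21 transcripts. The mm10 positions on the minus strand are Ighv1-9 at chr12:114583569-114583868, Ighv5-17 at chr12:113859149-113859448, Ighv1-62-2 at chr12:115446409-115446708, Ighv11-2 at chr12:114048241-114048540, Ighv14-3 at chr12:114059845-114060144 and Ighv1-81 at chr12:115920279-115920578. Capitals mark TACTGTG, searched on both strands, a run that reads through the codon of the conserved cysteine before the third complementarity-determining region.
Ighv1-9: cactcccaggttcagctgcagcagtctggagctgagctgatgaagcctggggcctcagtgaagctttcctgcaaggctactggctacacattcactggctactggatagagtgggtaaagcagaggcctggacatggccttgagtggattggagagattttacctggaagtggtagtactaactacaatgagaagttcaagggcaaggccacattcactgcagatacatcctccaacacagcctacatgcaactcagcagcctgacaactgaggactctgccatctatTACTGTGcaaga
Ighv5-17: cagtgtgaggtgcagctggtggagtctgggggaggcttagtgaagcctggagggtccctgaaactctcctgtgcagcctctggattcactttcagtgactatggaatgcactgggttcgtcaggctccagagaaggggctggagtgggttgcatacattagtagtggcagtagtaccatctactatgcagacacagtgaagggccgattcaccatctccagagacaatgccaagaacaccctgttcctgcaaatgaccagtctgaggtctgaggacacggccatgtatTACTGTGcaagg
Ighv1-62-2: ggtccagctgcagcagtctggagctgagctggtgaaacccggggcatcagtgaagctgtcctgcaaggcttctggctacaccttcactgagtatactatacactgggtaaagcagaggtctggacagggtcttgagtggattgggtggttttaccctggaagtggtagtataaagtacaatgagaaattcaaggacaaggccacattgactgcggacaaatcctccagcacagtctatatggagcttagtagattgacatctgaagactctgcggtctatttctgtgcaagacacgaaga
Ighv11-2: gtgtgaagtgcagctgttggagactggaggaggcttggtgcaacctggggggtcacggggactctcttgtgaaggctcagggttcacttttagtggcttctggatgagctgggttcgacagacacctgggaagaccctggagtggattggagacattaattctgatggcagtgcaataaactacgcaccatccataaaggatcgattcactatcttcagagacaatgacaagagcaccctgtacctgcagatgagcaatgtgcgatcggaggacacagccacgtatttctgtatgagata
Ighv14-3: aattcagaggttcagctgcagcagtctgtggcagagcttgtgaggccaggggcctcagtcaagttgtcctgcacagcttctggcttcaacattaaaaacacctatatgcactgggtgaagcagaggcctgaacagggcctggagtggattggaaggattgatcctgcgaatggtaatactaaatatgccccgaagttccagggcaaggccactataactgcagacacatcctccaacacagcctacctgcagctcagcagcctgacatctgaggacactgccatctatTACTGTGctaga
Ighv1-81: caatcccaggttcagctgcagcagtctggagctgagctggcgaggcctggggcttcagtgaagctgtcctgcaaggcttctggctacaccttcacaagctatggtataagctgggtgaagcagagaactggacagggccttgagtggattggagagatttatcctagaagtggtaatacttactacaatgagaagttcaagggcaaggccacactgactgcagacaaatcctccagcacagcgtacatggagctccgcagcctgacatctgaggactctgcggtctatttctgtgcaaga
Ighv1-9, Ighv5-17 and Ighv14-3 hold TACTGTG near their 3′ end, and Ighv1-62-2, Ighv11-2 and Ighv1-81 do not. The run was found in 47 of 71 members (66.2%) and in 98 of all 185 Ighv genes (53%), always on the coding strand. Family numbers, the digits before the hyphen, group similar sequences. Ighv1-9 and Ighv5-17, of different families, were 62.6% identical over 305 bases, whereas Ighv1-9 and Ighv1-81, of the same family, were 87.5% identical.

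Reads cannot always be told apart between members. The median identity of a member's V exon to its nearest Ighv gene was 96.1%, and 18 members were at least 97% identical to another Ighv gene. Values of such members are uncertain to the extent that reads were split between copies. The stretches below, bases 102 to 177 of the V exons of Ighv1-52 and Ighv1-61, show how little separates a pair of members, with the differing bases in capitals. Their positions are Ighv1-52 at chr12:115145615-115145690 and Ighv1-61 at chr12:115359268-115359343, minus strand.
Ighv1-52: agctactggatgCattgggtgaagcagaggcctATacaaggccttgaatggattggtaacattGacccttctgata
Ighv1-61: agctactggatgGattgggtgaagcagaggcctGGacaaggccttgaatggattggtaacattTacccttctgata
The 4 differing bases in these stretches were the only ones among the 305 bases of the exon. Ighv1-62-2, the member with the smallest p in MI against Sham, had a V exon identical over 313 bases to that of Ighv1-71, which is not a member and had 12 counts in all.

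Library totals ran from 21175087 to 24606783 counts, and members took 0.0105% to 0.023% of them. Neutrophil markers summed to 33540 to 60060 CPM (counts over the TMM-scaled library size) and T cell markers to 71.7 to 135 CPM. Sham-E 1 stood apart in early B-lineage RNA. It had 28 counts of Rag1, a subunit of the V(D)J recombinase, against 557 to 6537 in the other libraries, while its members summed to 2983 counts, within the 2218 to 5069 of the others. Insert lengths recovered from counts and TPM were 262 to 264 bases in MI, 279 to 282 in MI-E, 270 to 279 in Sham-E and 283 to 286 in Sham. Since member transcripts are short (329 to 480 bases), the length over which they can yield a read pair, their effective length, moved with the insert length.

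Counts were spread over many members. The highest summed count was 2195, for Ighv1-55, the median 488 and the lowest 120. The 16 leading members held 50% of the counts and the 10 leading ones 37.7%. Counts above 0 were found in all 12 libraries for 68 members. The exceptions were Ighv1-62-2 in MI 2, and Ighv8-5 and Ighv3-1 in MI 3. Just inside the rule were Ighv1-61 with 138 counts, Ighv5-12 with 135 and Ighv1-63 with 120. Just outside it were Ighv9-4 with 107, Ighv1-36 with 95 and Ighv2-6-8 with 93. Another 61 Ighv genes had no count in any library. Members held 96.7% of all Ighv counts.

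The 8 members with the largest counts were Ighv1-55, Ighv1-64, Ighv1-81, Ighv8-8, Ighv1-82, Ighv1-72, Ighv1-19 and Ighv8-12. On the per-length TPM scale 5 of these 8 were also among the 8 leading members, and Ighv1-81 came first with a mean share of 5.84% of the members' TPM. Ighv1-55 was even across groups, with group means of 7.24 ± 0.81 CPM in Sham, 8.97 ± 3.34 in Sham-E, 7.18 ± 1.78 in MI and 8.52 ± 1.41 in MI-E (SD, n = 3 each). Ighv1-81 stood at 11.05, 12.8 and 10.4 CPM in Sham, at 5.84, 8.04 and 4.75 in Sham-E, at 4.12, 11.4 and 7.10 in MI and at 5.37, 6.20 and 3.55 in MI-E. All Sham-E and MI-E libraries lay below all Sham libraries for this gene, and MI 2 reached the Sham range. Ighv1-64 ran from 3.26 CPM in MI 3 to 15.4 in Sham-E 3, and its MI-E libraries (6.81 to 7.69) lay below its Sham-E libraries (7.87 to 15.4). Ighv8-8 ran from 4.54 CPM in Sham-E 1 to 9.60 in Sham-E 3, and Ighv8-8, Ighv1-72, Ighv1-19 and Ighv8-12 overlapped in all 4 comparisons of groups.

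**Figure D1:**
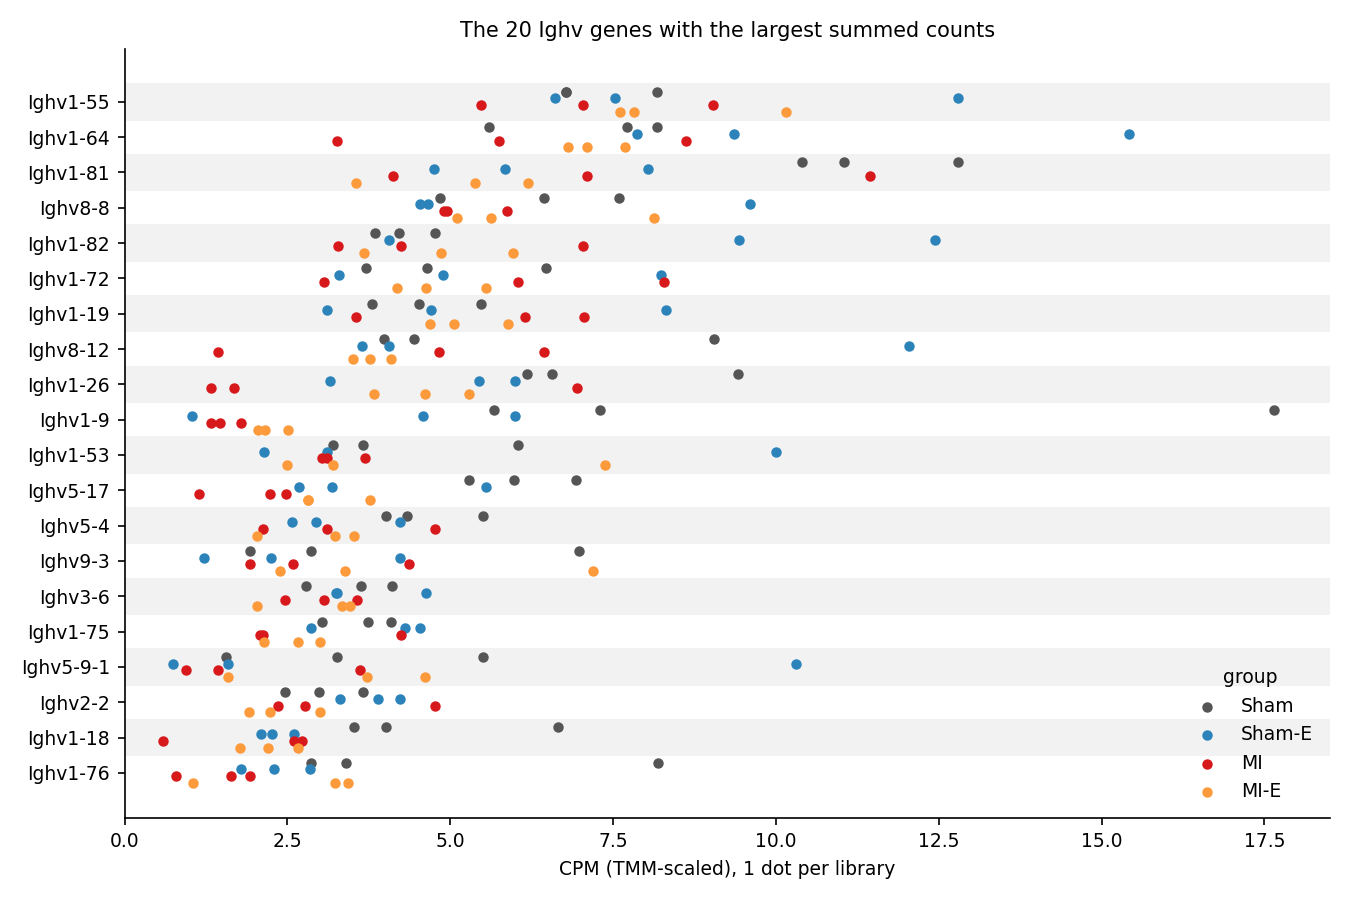
CPM (TMM-scaled, horizontal axis) of the 20 members with the largest summed counts, 1 dot per library, coloured by group. Ighv1-9 ranges from 1.04 CPM in Sham-E 1 to 17.6 in Sham 3, and the MI dots of Ighv1-9 and Ighv5-17 lie left of all Sham dots.

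A different member led in different libraries, and no leader dominated. Ighv1-81 took the largest share of the members' counts in Sham 1 (6.00%), Sham 4 (6.02%), MI 2 (7.39%) and MI 3 (6.49%). Ighv1-9 led in Sham 3 with 8.83% (95% Wilson interval 8.06 to 9.66%, counting error only), Ighv1-82 in Sham-E 2 and Ighv8-8 in MI-E 2. Ighv1-55 led in MI 1 and MI-E 3, and Ighv1-64 in Sham-E 3 and MI-E 4. In Sham-E 1, the library with few early B-lineage counts, Ighv5-16 led with 7.95% (7.03 to 8.97%). Its level there was 10.2 CPM against 0.798 to 3.55 in the other 11 libraries, so that 1 library held 32.7% of the CPM summed over all of them. The highest such share of any member was 33.0%, for Ighv1-9 in Sham 3, so that no member owed over 50% of its summed level to 1 library. On the TPM scale the leader was the same in 8 of the 12 libraries.

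The effective number of segments, the exponential of the Shannon entropy of the shares, would be 71 if all members were equal. It was 49.6 ± 2.12 in Sham, 47.7 ± 1.93 in Sham-E, 47.7 ± 3.16 in MI and 49.9 ± 0.25 in MI-E, and the groups overlapped in all 4 comparisons. The 10 leading members of each library held 40.8 ± 2.56% in Sham, 42.8 ± 1.54% in Sham-E, 42.5 ± 3.74% in MI and 39.6 ± 0.98% in MI-E, where MI-E lay below Sham-E without overlap. The overlap of 2 libraries, the sum of the smaller of their shares over members, was 74.4 to 82.4% within groups (median 79.1, 12 pairs) and 71.7 to 81.0% between groups (median 76.1, 54 pairs). Pairs of Sham libraries shared 80.3 to 80.8%, and pairs of MI and Sham libraries 71.7 to 79.9%. Pairs of MI libraries shared 74.4 to 76.9%, of Sham-E libraries 74.9 to 79.2% and of MI-E libraries 78.9 to 82.4%. Member counts were 2218 to 3157 in MI and 4317 to 4870 in Sham libraries, and their part in the overlap was not tested.

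The summed level of the members was lowest in MI. It was 184, 200 and 173 CPM in Sham 1, 3 and 4, and 133, 155 and 109 CPM in MI 1, 2 and 3. All MI libraries lay below all Sham libraries, and the ratio of the means was 0.713. Sham-E stood at 129, 166 and 225 CPM and MI-E at 148, 138 and 150 CPM, which overlapped with Sham and with MI respectively. MI-E to MI was 1.10, Sham-E to Sham 0.934 and MI-E to Sham-E 0.837, all with overlap. Without Sham-E 1 the log2 ratio of Sham-E to Sham moved from -0.10 to 0.08, and that of MI-E to Sham-E from -0.26 to -0.43. On the TPM scale the summed levels were 2668 ± 261 in Sham, 2160 ± 526 in Sham-E, 1353 ± 264 in MI and 1658 ± 234 in MI-E, with a ratio of MI to Sham of 0.507, again without overlap. The median effective length of members was 80.3 ± 4.57 bases in Sham, 91.7 ± 7.47 in Sham-E, 106 ± 4.31 in MI and 87.5 ± 6.34 in MI-E, so the length correction widened the difference. The part of insert length in the difference in counts was not tested.

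**Figure D2:**
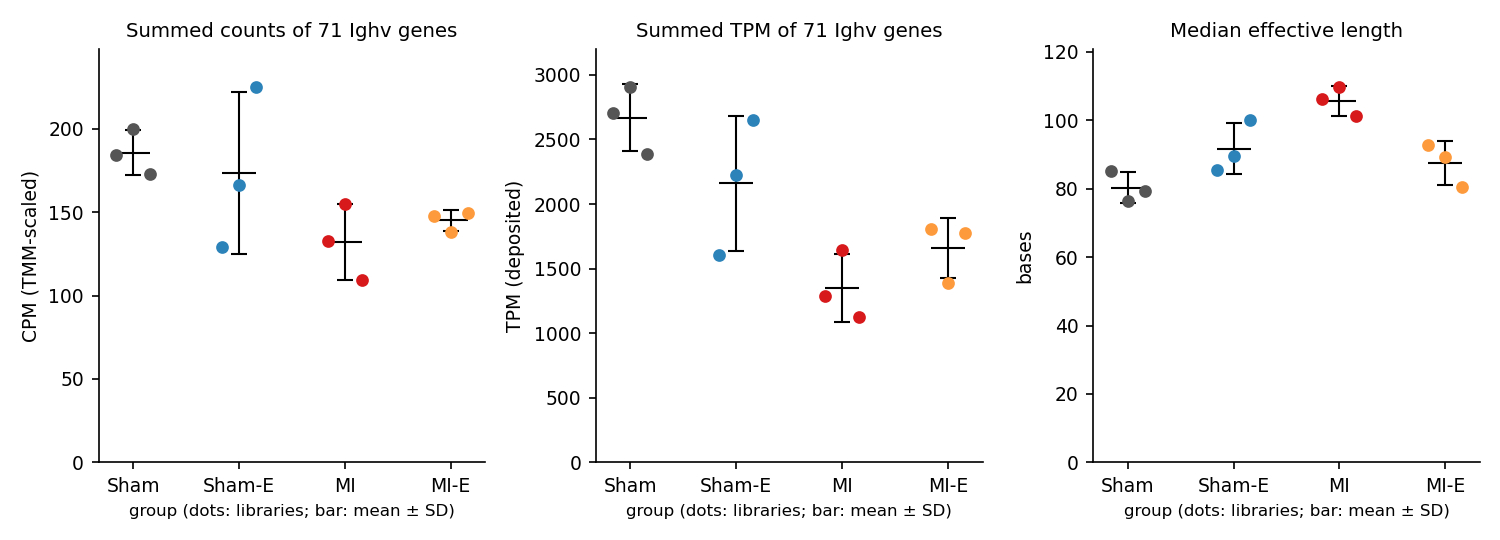
Summed level of the 71 members in TMM-scaled CPM (left) and in deposited TPM (middle), and the median effective length of their transcripts in bases (right), by group. Dots are libraries and bars the mean ± SD; MI lies below Sham on both scales while its effective lengths of 101 to 110 bases are above the 76.3 to 85.3 of Sham.

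In proportion to heavy chain constant genes the groups overlapped. There were 7.69 ± 0.45 member counts per 100 constant gene counts in Sham, 8.53 ± 0.95 in Sham-E, 7.93 ± 0.53 in MI and 7.73 ± 0.98 in MI-E, and all comparisons overlapped. These proportions use counts without a correction for length. The members' median effective length was 80.3 bases in Sham and 106 in MI. Their ratio of MI to Sham was 0.713 in counts and 0.507 in TPM. The part of length in the proportions was not tested. The constant genes, which encode the antibody class, themselves had 7 of 7 tested genes below 0 in MI against Sham (median log2 fold change -0.34) and 7 of 7 above 0 in MI-E against MI (median 0.21), and edgeR and DESeq2 called 0 of them in both. Other B-lineage lists were read beside the members in MI against Sham, and edgeR called 0 genes in each of them. Mature B cell markers had 16 of 16 genes below 0 (median -0.57), and their sums of 1484 to 2036 CPM in Sham and 806 to 1253 in MI did not overlap. Early B-lineage markers had 13 of 14 below 0 (median -1.35), with sums of 727 to 976 CPM in Sham and 394 to 628 in MI. Plasma cell markers had 7 of 10 below 0 (median -0.89), but their sums overlapped, at 606 to 687 CPM in Sham and 446 to 632 in MI. A longer list of 14 plasma cell genes was split, 7 above and 7 below 0, with mean sums of 972 CPM in Sham and 979.5 in MI. Among others, DESeq2 called Cd79a and Ralgps2 of the mature markers, Pax5, Lef1 and Arpp21 of the early ones, and Sdc1, Mzb1 and Irf4 of the plasma cell ones lower, and Bst1 of the early ones higher in MI; these genes are named because of their values. The part of these lists in the result was not tested, and fewer cells of a type and less RNA per cell cannot be told apart in bulk marrow.

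MI against Sham asked how infarction related to Ighv RNA without EMPA. Most members were lower in MI, Ighv1-62-2, Ighv1-9 and Ighv5-17 with the smallest p, but none passed the test. Among the members, 52 of 71 had a log2 fold change below 0 (73.2%, against 47.6% of all 15119 genes tested). Their median was -0.40, against 0.03 for all genes. Here and in the comparisons below, fold changes use counts without a correction for length. The members' median effective length was 80.3 bases in Sham and 106 in MI, and its part in the fold changes was not tested. No member passed an adjusted p of 0.05 by edgeR's quasi-likelihood test with Benjamini-Hochberg adjustment (0 of 71, against 0.417% of all genes). At an unadjusted p under 0.05 there were 14 members, all lower in MI, which is 19.7% against 19.5% of all genes in either direction and 8.61% in the lower direction. In 15 members all MI libraries lay below all Sham libraries (21.1%, against 13.8% of all genes), and in 0 all lay above (13.4% of all genes). DESeq2 called 5 members lower, which are Ighv1-9, Ighv5-17, Ighv1-76, Ighv1-22 and Ighv1-54 (8.33% of the 60 members that it gave an adjusted p, 7.04% of all 71, against 7.05% of all genes), and limma-voom called 0 (0.304% of all genes).

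Ighv1-62-2 had the smallest p of the members. It had 22, 13 and 36 counts in Sham 1, 3 and 4, and 2, 0 and 1 in MI 1, 2 and 3, where the limit that 0 counts allow in MI 2 is 0.149 CPM. The MI libraries were all below the Sham, Sham-E (6, 27 and 11 counts) and MI-E (18, 6 and 12 counts) libraries. The log2 fold change was -4.24 ± 0.86 (SE, adjusted p = 0.054 in edgeR), and it ran from -5.01 without MI 1 to -3.74 without MI 2 when a library was left out. Summed over libraries and scaled for library size, 71 counts in Sham against 3 in MI gave a ratio of 20.8 (95% exact interval 6.85 to 103, counting error only). With the identical Ighv1-71 added, 76 counts in Sham stood against 3 in MI, a scaled ratio of 22.3 (7.35 to 111). DESeq2 gave this gene no adjusted p.

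Ighv1-9 was at 7.29, 17.6 and 5.68 CPM in Sham, and at 1.47, 1.78 and 1.33 CPM in MI. Its Sham libraries were spread widely and all lay above the MI libraries. The log2 fold change was -2.74 ± 0.57 (adjusted p = 0.0554 in edgeR, DESeq2 adjusted p = 0.000107). Without Sham 3 it was -2.10 (adjusted p = 0.207 in edgeR). Ighv5-17, chosen after its values were seen, was at 5.97, 6.93 and 5.28 CPM in Sham and at 2.23, 2.48 and 1.14 in MI, with a log2 fold change of -1.64 ± 0.35 (adjusted p = 0.0554 in edgeR, DESeq2 adjusted p = 0.000652). Its Sham libraries were close together and its MI libraries were all below them. In edgeR, these members passed the threshold when Sham-E 1, which is in neither group, was left out and no longer added to the shared spread (adjusted p = 0.011 for Ighv1-62-2, 0.0032 for Ighv1-9 and 0.013 for Ighv5-17), and Ighv5-16 did so too. All genes were then called more often as well, 7.90% of them against 5.63% of members. Without MI 2, Ighv5-17, Ighv1-26 and Ighv1-52 passed (4.23% of members, 1.84% of all genes), and without Sham-E 3, Ighv1-9 and Ighv5-17 (2.82% of members, 0.787% of all genes). In the upward direction the smallest p belonged to Ighv5-6 (log2 fold change 0.86 ± 0.52, adjusted p = 0.379 in edgeR) and Ighv2-5 (0.50 ± 0.42, adjusted p = 0.54 in edgeR), both with overlapping libraries.

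MI-E against MI asked how Ighv RNA related to EMPA after infarction. Ighv1-62-2, Ighv1-22, Ighv14-3 and Ighv11-2 were higher in every MI-E library than in every MI library, and none passed the test in edgeR. The comparison shares the MI libraries with MI against Sham, so a member that was low in MI can stand out in both. In counts, members were balanced, with 37 of 71 above 0 (52.1%, against 47.6% of all genes) and a median of 0.02 (all genes -0.02). These counts were not corrected for the members' median effective length, 106 bases in MI and 87.5 in MI-E. The ratio of summed levels of MI-E to MI was 1.10 in counts and 1.225 in TPM. The part of length in the fold changes was not tested. By edgeR's quasi-likelihood test 0 of 71 members were called (0.00661% of all genes), 8 had an unadjusted p under 0.05 (11.3%, against 17.4% of all genes), 6 of them higher (8.52% of all genes) and 2 lower in MI-E (8.88% of all genes). Without overlap, 9 members were higher (12.7%, against 11.6%) and 3 lower (4.23%, against 10.1%), namely Ighv3-8, Ighv1-80 and Ighv7-3. DESeq2 called Ighv1-22, Ighv11-2 and Ighv14-3 higher (4.23% of all members and 5% of the 60 with an adjusted p, against 3.82% of all genes), and limma-voom called 0 (0.00661% of all genes). Mature B cell markers had 16 of 16 above 0 (median 0.44) and sums of 806 to 1253 CPM in MI and 1377 to 1759 in MI-E, which did not overlap. Of these markers edgeR called 0 and DESeq2 called Cd22, Cd79a and Cxcr5 higher, and their part in the result was not tested.

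Ighv1-62-2, with 18, 6 and 12 counts in MI-E, had a log2 fold change of 3.38 ± 0.89 (adjusted p = 0.123 in edgeR). It was 2.88 without MI 2 and 4.16 without MI 1. The ratio of its summed counts, scaled for library size, was 11.6 (exact interval 3.66 to 58.8, counting error only). Ighv1-22 was at 0.798, 0.743 and 1.33 CPM in MI and at 2.11, 2.19 and 2.41 CPM in MI-E. The MI-E libraries were close together and above all MI libraries, with a log2 fold change of 1.22 ± 0.33 (adjusted p = 0.126 in edgeR, DESeq2 adjusted p = 0.0222). Ighv11-2 and Ighv14-3 were chosen here after their values were seen. Ighv11-2, the sole member of its family and known as a segment used by B-1 cells, was at 0.546, 0.595 and 0.740 CPM in MI and at 2.62, 2.24 and 2.50 in MI-E. Its Sham libraries spanned 0.318 to 2.75 CPM and so held the values of all the other groups. The log2 fold change of MI-E to MI was 1.96 ± 0.58 (adjusted p = 0.142 in edgeR, DESeq2 adjusted p = 0.0309). Ighv14-3 stood at 0.924, 1.24 and 0.592 CPM in MI and at 5.16, 2.48 and 2.00 in MI-E, where MI-E 2 was highest. The members with the smallest p in the lower direction were Ighv3-8 (log2 fold change -1.37 ± 0.60, adjusted p = 0.267 in edgeR) and Ighv1-80 (-0.94 ± 0.43, adjusted p = 0.287 in edgeR).

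**Figure D3:**
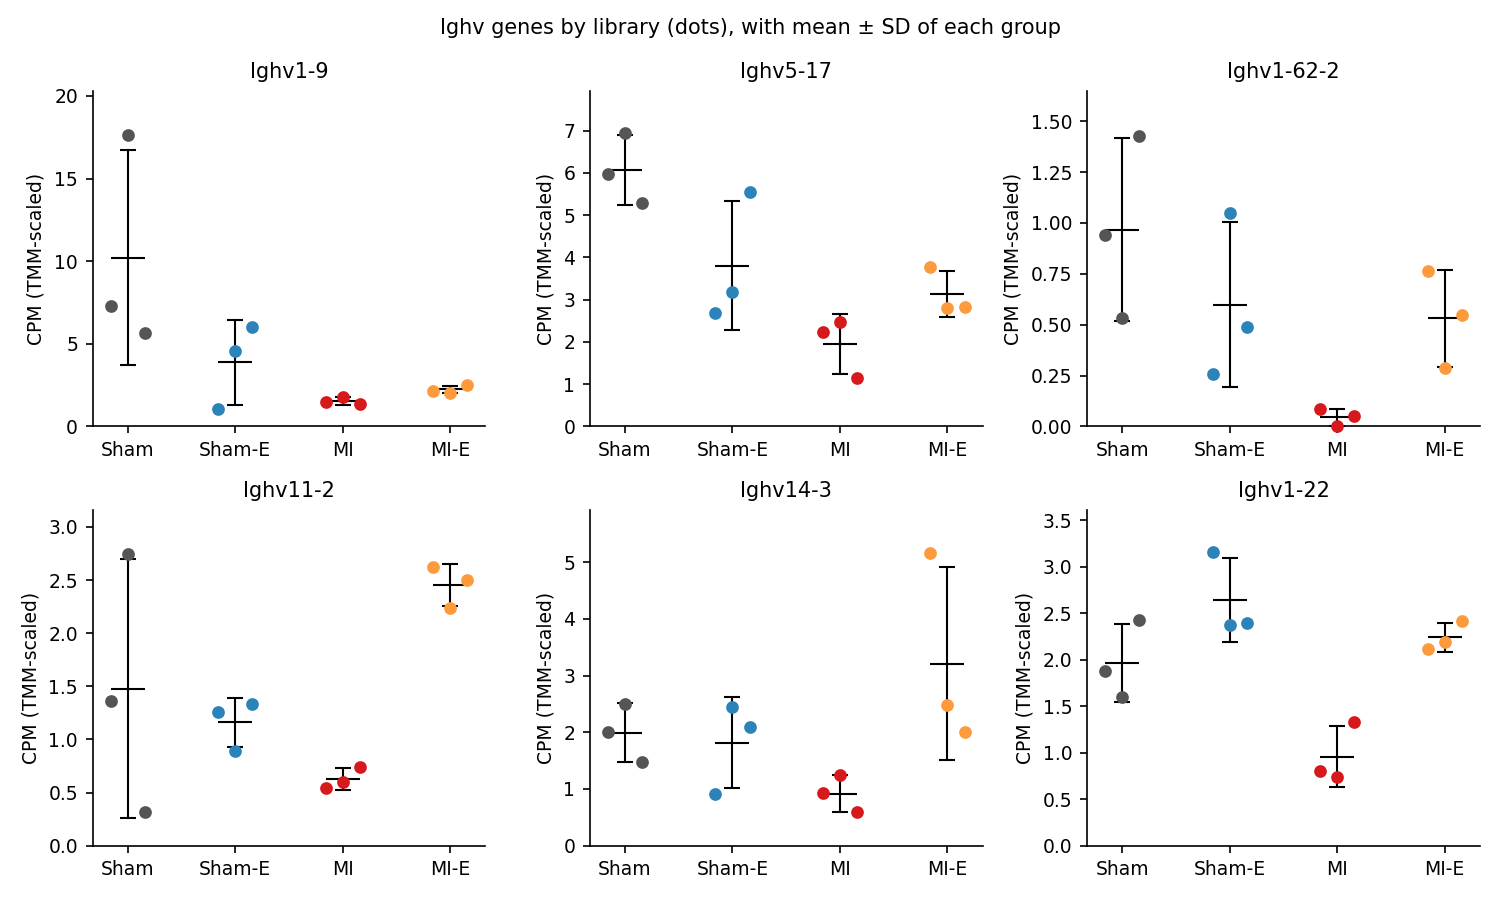
CPM (TMM-scaled) of 6 members by group, with libraries as dots and the mean ± SD as bars. Every MI dot lies below every Sham dot for Ighv1-9, Ighv5-17, Ighv1-62-2, Ighv14-3 and Ighv1-22, and below every MI-E dot for all 6; the Sham dots of Ighv11-2 spread from 0.318 to 2.75 CPM.

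Sham-E against Sham compared EMPA without infarction. The median log2 fold change of members was -0.11 (all genes 0.01), and 38 of 71 were below 0 (53.5%, against 47.5%). By edgeR's quasi-likelihood test 0 members were called, as were 0 of all genes (0%), and 6 members had an unadjusted p under 0.05 (8.45%, against 1.9% of all genes). Of these, 1 was higher (1.22% of all genes), Ighv1-82, and 5 were lower (0.681% of all genes), which were Ighv1-84, Ighv1-9, Ighv1-81, Ighv1-58 and Ighv1-18. DESeq2 and limma-voom called 0 members (0.0132% and 0% of all genes), and edgeR called 0 also without Sham-E 1. In 6 members all Sham-E libraries lay below all Sham libraries (8.45%, against 4.46%), and in 0 above (4.52%). Ighv1-82 was at 3.84, 4.76 and 4.21 CPM in Sham and at 4.07, 9.43 and 12.4 in Sham-E, where Sham-E 1 lay within the Sham range. Its log2 fold change was 1.02 ± 0.38 (adjusted p = 1 in edgeR). Ighv1-5 had 1.05 ± 0.50, Ighv1-84 had -2.05 ± 0.75 and Ighv1-9 had -1.40 ± 0.53, each with an adjusted p of 1 in edgeR and with overlapping libraries. Each moved with 1 library, to 0.30 for Ighv1-5 without Sham-E 2, to -1.26 for Ighv1-84 without Sham 4 and to -0.75 for Ighv1-9 without Sham 3. Ighv1-81, whose values stand above, did not overlap (-0.88 ± 0.34).

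MI-E against Sham-E compared infarction under EMPA. The median of members was -0.18 (all genes 0.00), and 48 of 71 were below 0 (67.6%, against 49.6%) and 23 above (32.4%, against 50.4%). By edgeR's quasi-likelihood test 0 members and 0 of all genes (0%) were called, and 4 members had an unadjusted p under 0.05, all lower (5.63%, against 13.4% of all genes in either direction, 7.45% lower and 5.99% higher). They were Ighv6-6, Ighv2-9, Ighv1-82 and Ighv13-2. DESeq2 and limma-voom called 0 members (1.4% and 0% of all genes). In 9 members all MI-E libraries were below all Sham-E libraries (12.7%, against 12.2%) and in 2, Ighv1-58 and Ighv11-2, above (2.82%, against 11.7%). Ighv6-6 was at 0.908, 1.09 and 2.13 CPM in Sham-E and at 0.677, 0.429 and 0.410 in MI-E (log2 fold change -1.43 ± 0.47, adjusted p = 0.276 in edgeR). Ighv1-58 was at 0.389, 0.311 and 0.400 CPM in Sham-E and at 0.508, 0.715 and 1.46 in MI-E, while its Sham libraries reached 1.81 CPM. Ighv2-9 had a log2 fold change of -1.15 ± 0.50 and Ighv11-2 of 1.08 ± 0.55, with adjusted p of 0.348 and 0.405 in edgeR.

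The interaction, which takes the log2 fold change of Sham-E against Sham from that of MI-E against MI, tests whether EMPA went with different changes after infarction and after sham surgery. By edgeR 0 members were called (0.00661% of all genes), and 10 had an unadjusted p under 0.05, all above 0 (14.1%, against 13.5% of all genes in either direction, 6.22% above and 7.28% below 0). DESeq2 and limma-voom called 0 members (1.1% and 0% of all genes). The median was 0.30 (all genes -0.04). The smallest p belonged to Ighv1-62-2 (4.06 ± 1.10, adjusted p = 0.255 in edgeR) and Ighv1-58 (3.23 ± 0.92, adjusted p = 0.264 in edgeR). With a library left out, Ighv1-62-2 ran from 3.56 to 4.84, the highest without MI 1, and was 4.76 without Sham-E 2. Ighv1-58 was 2.59 without Sham 3. In the other direction the smallest p belonged to Ighv6-6 (-1.25 ± 0.65, adjusted p = 0.413 in edgeR) and Ighv1-82 (-1.02 ± 0.54, adjusted p = 0.42 in edgeR).

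The spread between libraries was wider for these genes than for most, and much as for light chain V genes. The biological coefficient of variation that edgeR estimated, the relative spread between libraries of a group beyond counting error, had a median of 0.399 over members (0.244 to 0.859), against 0.426 over the 78 light chain V genes and 0.214 over all genes tested. Ighv8-5, named for the highest value, was at 3.29 CPM in Sham 1 but at 0.328 and 0.159 in Sham 3 and 4, and had 0 counts in MI 3.

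Family shares of counts do not depend on the total, but they do depend on effective length, which differed between groups. Transcripts were 405 bases long for Ighv5-17 and 461 for Ighv11-2, against a median of 358 over members. The part of length in these shares was not tested. Ighv1, the largest family, held 61.4% of member counts with 39 members, Ighv5 10.5%, Ighv8 7.58% and Ighv2 5.53%. The Ighv5 share was 12.9, 10.02 and 10.4% in the Sham libraries and 8.84, 8.63 and 8.48% in the MI libraries. Ighv5-17 alone took 3.26 ± 0.21% in Sham and 1.44 ± 0.35% in MI. The Ighv14 share was 2.21 ± 0.27% in Sham and 1.52 ± 0.23% in MI, again lower in every MI library. Conversely, the Ighv2 share was 4.64 ± 0.39% in Sham and 6.96 ± 0.47% in MI, and the Ighv10 share 1.68 ± 0.17% and 2.55 ± 0.55%, both higher in every MI library. In CPM, Ighv2 had 8.57 ± 0.15 in Sham and 9.17 ± 1.40 in MI, with overlap. In MI-E against MI, the Ighv5, Ighv11 and Ighv14 shares were higher without overlap and the Ighv1 and Ighv2 shares lower. Ighv14-3 alone took 0.679 ± 0.13% in MI and 2.21 ± 1.13% in MI-E. Families were not described without Ighv5-17 or Ighv14-3, so these family differences repeat those of single members in part. Ighv11-2 made up 0.491 ± 0.16% of member counts in MI and 1.69 ± 0.08% in MI-E, against 0.700 ± 0.24% in Sham-E, which also lay below MI-E without overlap. The Ighv1 share was 62.8 ± 1.12% in MI and 58.9 ± 0.70% in MI-E. The Ighv10 share was lower in Sham-E than in Sham and higher in MI-E than in Sham-E, and the Ighv13 share lower in MI-E than in Sham-E, all without overlap. These shares were not tested, and 13 families were looked at in 4 comparisons.

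**Figure D4:**
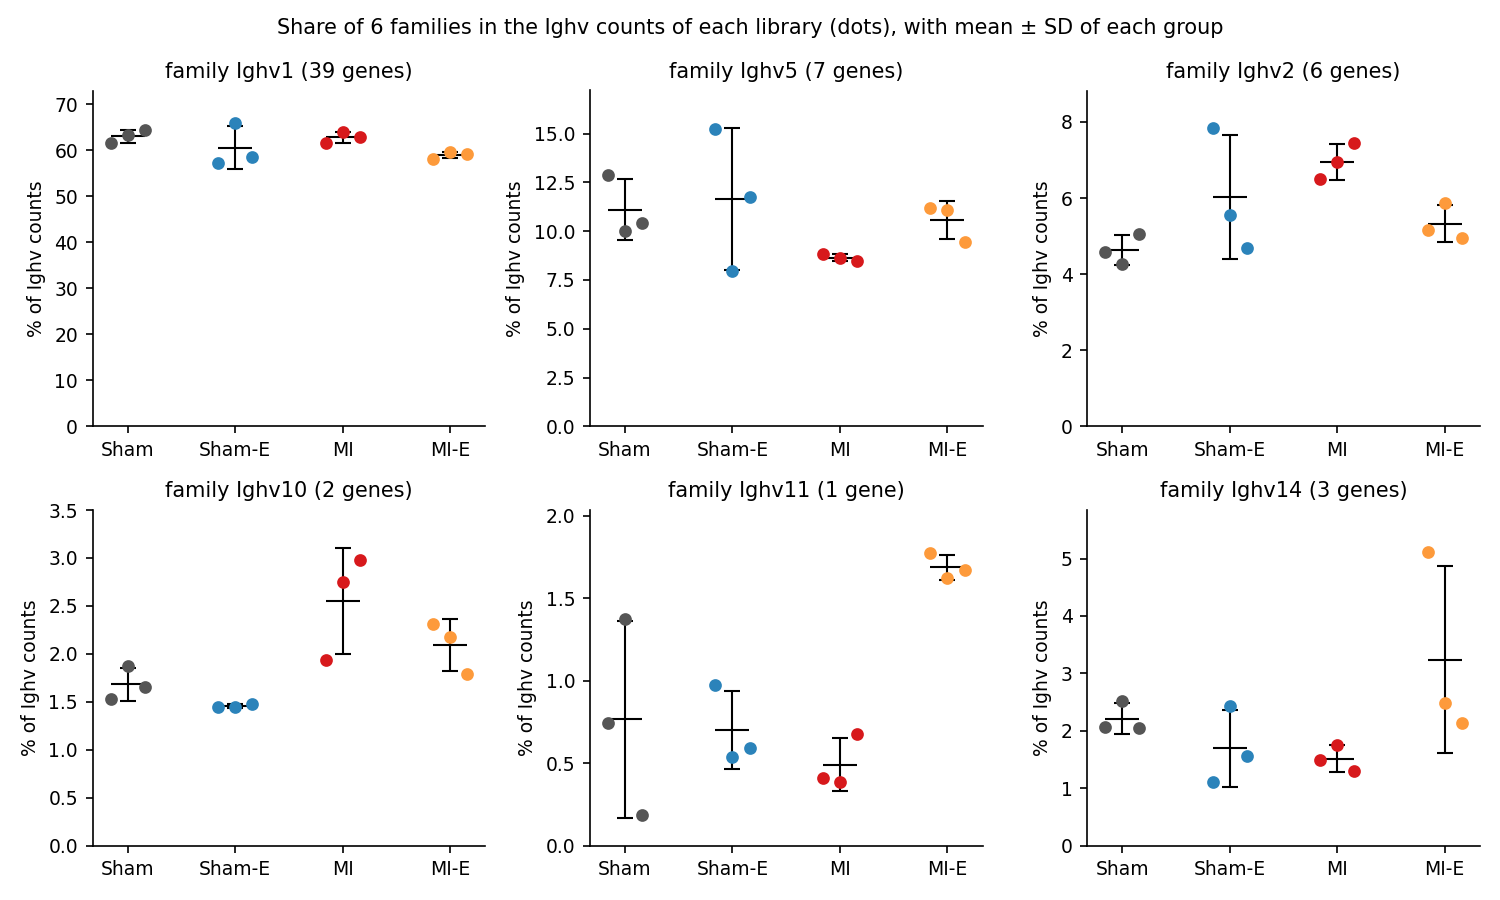
Share of the members' counts (percent) held by 6 Ighv families in each library (dots), with the mean ± SD of each group (bars). MI lies below Sham and MI-E for families Ighv5 and Ighv14 and above them for Ighv2, and MI-E lies above MI and Sham-E for Ighv11.

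Position along the locus was described by cutting it into 3 stretches of equal length. The stretch nearest the J segments held 25 members, the middle 24 and the farthest 22. The middle stretch took 35.1 ± 1.38% of member counts in Sham, 31.2 ± 2.37% in Sham-E, 31.3 ± 0.70% in MI and 30.3 ± 0.85% in MI-E. All Sham-E and MI libraries lay below all Sham libraries. Ighv1-9 is in this stretch, 1154 kb from the J segments. It alone took 5.36 ± 3.0% of member counts in Sham, 2.1 ± 1.1% in Sham-E and 1.16 ± 0.05% in MI. The stretch was not described without Ighv1-9, so its lower share repeats that of a single member at least in part. The stretch nearest the J segments took 25.4 ± 1.14% in MI and 30.0 ± 0.25% in MI-E. The farthest took 43.3 ± 1.84% in MI and 39.7 ± 1.04% in MI-E, and neither stretch overlapped between the groups. The nearest stretch holds Ighv5-17, Ighv11-2 and Ighv14-3. From MI to MI-E their mean shares went from 1.44 to 2.155%, from 0.491 to 1.69% and from 0.679 to 2.21%. The stretch was not described without these members.

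**Figure D5:**
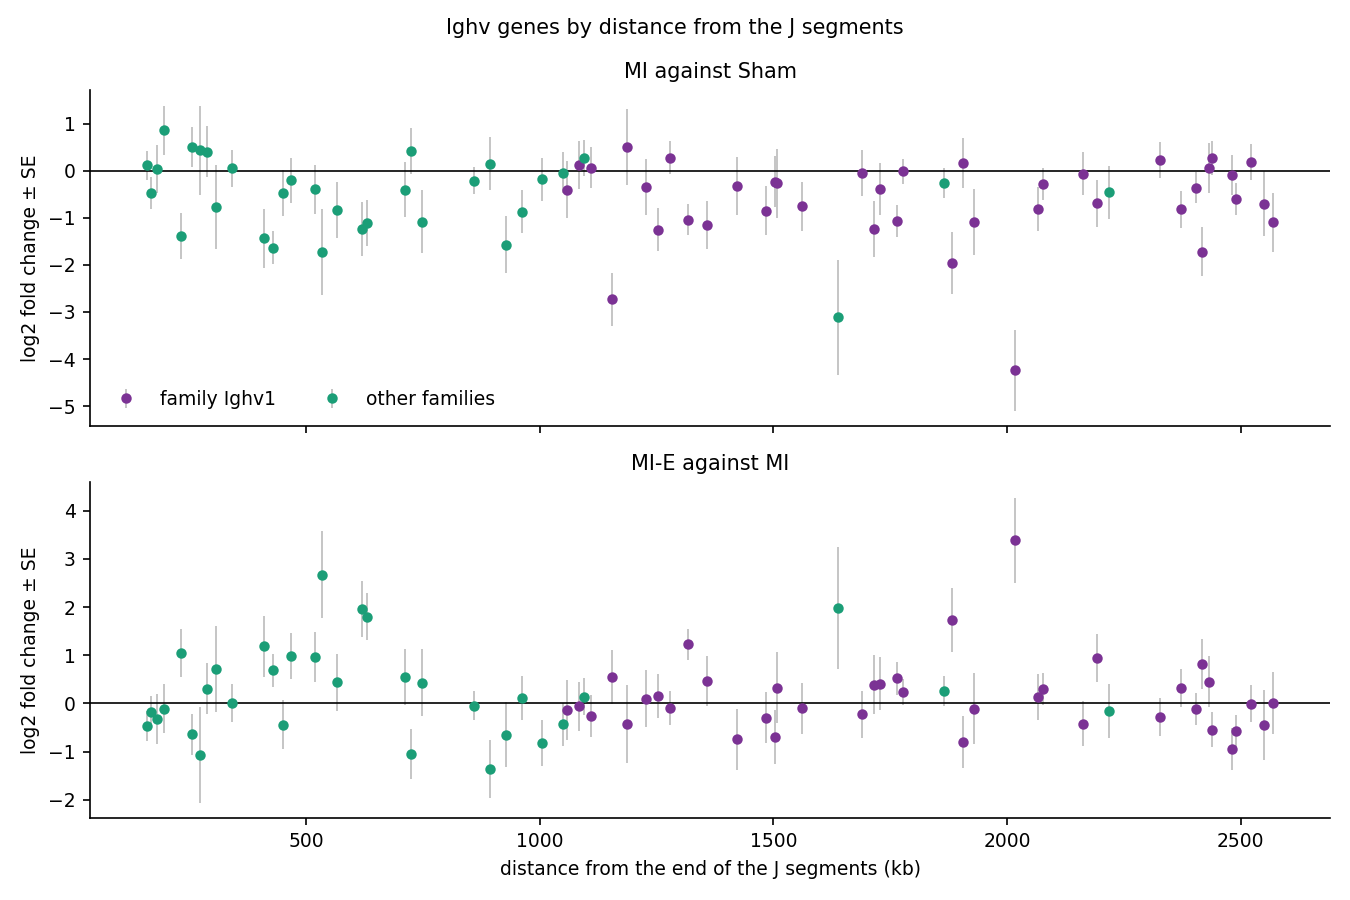
Log2 fold change ± SE (edgeR) of the 71 members against their distance in kb from the end of the J segments, for MI against Sham (top) and MI-E against MI (bottom), with family Ighv1 and the other families in different colours. In the upper panel 52 of 71 points lie below 0, spread over the whole locus.

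Light chain V genes, which pair with the heavy chain, were read beside the members. Of 78 tested, 72 were below 0 in MI against Sham (against 47.6% of all genes), with a median log2 fold change of -0.78. Of these genes 3 were called lower by edgeR (0.417% of all genes) and 12 by DESeq2 (7.05%). In MI-E against MI 69 were above 0 (against 47.6% of all genes) with a median of 0.63, 0 called by edgeR (0.00661%) and 8 by DESeq2 (3.82%). Whether they differ from the Ighv genes was not tested. The recombination and surrogate light chain genes had 7 of 7 below 0 in MI against Sham (median -1.53) and 7 of 7 below 0 in MI-E against MI (median -0.53), with 0 called by edgeR and by DESeq2 in both. Their summed level was 16.6 CPM in Sham-E 1 and 329 to 535 CPM in Sham. Genes of V(D)J locus control had 9 of 10 below 0 in MI against Sham (median -0.61), and the octamer factors, which bind a promoter element of V genes, 3 of 3 (median -0.19). In both lists edgeR called 0, while DESeq2 called Pax5 and Tcf3 lower, of the first list. The 4 heavy chain J segments were listed at 0 in every library.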

How the data were processed

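RNA of whole bone marrow was sequenced in 12 libraries, in 4 groups of 3. Expected counts, whole numbers as deposited by the authors, stood in a table of their own and TPM values in another, which are scaled for transcript length. Build mm10 and the tools RSEM, STAR 2.4.0j and CASAVA 1.8 come from the submitters' processing notes. The sources used here do not give the strand setting or the annotation. Columns of Sham-E and MI were matched to single samples, and those of Sham and MI-E to their group alone.

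The members and lists were chosen with earlier results of these data known. Counts were kept by filterByExpr with the 4 groups (15119 genes, all 71 members among them) and scaled by TMM. All 12 libraries entered 1 fit of edgeR 4.0.16 (R 4.3.3), tested by quasi-likelihood, with Benjamini-Hochberg adjustment over all genes tested and a threshold of 0.05. Each SE is a log2 fold change divided by the root of its F statistic. CPM are counts over the TMM-scaled library size. The fit was checked on simulated data. These had the same dispersion for every gene, lower than that of the members, so the check does not cover their wider spread. Alternatives were other scaling factors, no filter, DESeq2 1.42.0, limma-voom and limma trend (3.58.1) on log2(TPM + 0.5), the groups compared alone, a replicate block, other member sets, and each library left out. Insert and effective lengths were recovered from the ratio of count to TPM. At library totals of 21175087 to 24606783 counts, 3 counts of a gene are 0.117 to 0.149 CPM.

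Named members were the 8 with the largest summed counts, the leader of each library, the 2 in each direction with the smallest p per comparison (where none was called), those next to the sum of 120, and any with over 50% of its CPM in 1 library (0 found). Symbols came from the deposited table, and positions, V exons and identities from GENCODE M21. A planned description of recombination signals and promoter octamers was not made, since no genomic sequence around these genes was used here.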

Additional observations from a re-analysis of the deposited data

How the results depend on the processing

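Of 279 alternatives of the summary values, 265 stayed within their limits. For levels, evenness and shares the limit was a move of less than the pooled SD of the groups compared. For the number of members called it was to stay at 0. For single named members and the shares of families other than Ighv1, 588 alternatives stayed the same. For a named member this means only the same sign and the same side of the threshold. A missing adjusted p was taken as not past the threshold. Another 16 alternatives, all of family shares, moved beyond their limits, and 11 of named members passed the threshold. Members called in MI against Sham, 0 by edgeR (0.417% of all genes), were 2 with no filter on low counts (2.82% of members, 0.625% of all genes). They were 3 in a fit to the groups compared alone (4.41% of 68 members, 2.39%). DESeq2 called 5 (8.33% of 60 and 7.04% of all 71 members, against 7.05% of all genes), and limma trend on TPM 7 (9.86%, 1.73%). With a library left out, 0 to 4 were called (4 without Sham-E 1, 5.63% and 7.90%). All were lower in MI. In MI-E against MI, DESeq2 called 3 (5% of 60 and 4.23% of all 71 members, against 3.82% of all genes). Limma trend on TPM called 1 (1.41%, 0.351%), and all were higher in MI-E. The fit to the groups compared alone gives no interaction.

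On the TPM scale, the log2 ratio of summed levels in MI against Sham was -0.98 (-0.49 in counts). The difference in effective number, Sham-E less Sham, was 0.77 (-1.95 in counts), and that in the share of the 10 leading members -0.54 points (1.97 in counts). The Ighv1 share differed by -2.54 points in MI against Sham (-0.29 in counts) and by -2.72 in MI-E against MI (-3.81 in counts). TPM corrects for effective length, which was longest in MI, and leaves out the TMM factors. The cause of these changes was not tested.

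With the number in the column name as a replicate block, 0 members were called in all 5 comparisons. The 13 pairs of libraries with the same number correlated at -0.21 to 0.15 in their deviations from group means, 4 of them over 0.1, and 4 of 12 libraries correlated best with their own number, so the numbers were not taken to pair the samples.

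With 3 libraries per group and a median biological coefficient of variation of 0.399, small differences of single members were not detectable. Members near the sum of 120 rest on few counts per library.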
